A study of Mus musculus with 6 samples.

Results

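Virtual memory cells are CD8+ T cells that take on a memory-like surface without having met a foreign antigen. Cd44, Eomes, Il2rb, Ly6c1, Ly6c2, Ly6a and Cd5 are the 7 genes examined here because their products are used to recognise such cells or the naive cells they come from. A member was measured by a probe set, a group of array probes read as a single value, that the platform annotation gives to exactly 1 gene symbol. This left 4 of the 7 genes, Cd44, Eomes, Il2rb and Cd5, each with 1 probe set, among 19938 genes measured in the same way. Ly6c1 and Ly6c2 share 2 probe sets that carry both symbols, so neither has a value of its own, and Ly6a is named on no probe set in the annotation used.

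The samples were spleen and lymph node CD8+ T cells gated for low surface CD44 by flow cytometry, from 10-week-old mice on the C57BL/6 background. Of 6 Affymetrix arrays, 3 held cells of Roquin+/+ (wild-type) mice and 3 held cells of Roquinsan/san (sanroque) mice, homozygous for a point mutation in the RNA-binding protein Roquin. The genotype is that of the whole mouse, so the cells developed and lived among mutant cells of every other type. The labels call the arrays of a genotype biological replicates, and they do not say whether a sample was 1 mouse or a pool.

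As background, CD44 is a receptor for the matrix sugar hyaluronan that T cells raise on activation and keep as memory cells. Virtual memory cells depend on the cytokine interleukin 15, which they receive through CD122, the receptor chain encoded by Il2rb, and the T-box transcription factor Eomes drives Il2rb. Ly6C and Sca-1, from Ly6c1, Ly6c2 and Ly6a, are small membrane-anchored proteins common on memory-type CD8+ T cells. CD5 dampens T cell receptor signals, and naive cells with more of it are known to give rise to virtual memory cells more readily. High surface CD44 defines the virtual memory phenotype, so a gate for low CD44 should leave these cells out. The comparison asks whether the RNA of these genes nonetheless differs with the Roquin genotype.

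The upstream DNA of Cd44 and Eomes, which rose in sanroque cells, is shown with that of Cd5, which did not pass the test, to place the genes and let their start regions be compared. Each sequence is the 250 bases before the start site in RefSeq, build GRCm38.p6, read 5′ to 3′ on the strand of the gene. Cd44 lies on chromosome 2, at chr2:102901666-102901915 (minus strand), Eomes on chromosome 9, at chr9:118477939-118478188 (plus strand), and Cd5 on chromosome 19, at chr19:10738975-10739224 (minus strand). Capitals mark matches to the searched motifs.
Cd44: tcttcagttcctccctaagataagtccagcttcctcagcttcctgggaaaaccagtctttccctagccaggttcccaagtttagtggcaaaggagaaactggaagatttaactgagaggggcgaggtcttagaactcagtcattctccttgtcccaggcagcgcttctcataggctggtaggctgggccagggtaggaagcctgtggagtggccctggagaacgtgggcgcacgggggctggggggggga
Eomes: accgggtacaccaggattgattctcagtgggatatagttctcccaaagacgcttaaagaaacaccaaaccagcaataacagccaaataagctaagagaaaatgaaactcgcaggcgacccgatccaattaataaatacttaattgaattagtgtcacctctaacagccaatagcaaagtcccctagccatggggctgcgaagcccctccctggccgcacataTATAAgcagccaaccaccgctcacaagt
Cd5: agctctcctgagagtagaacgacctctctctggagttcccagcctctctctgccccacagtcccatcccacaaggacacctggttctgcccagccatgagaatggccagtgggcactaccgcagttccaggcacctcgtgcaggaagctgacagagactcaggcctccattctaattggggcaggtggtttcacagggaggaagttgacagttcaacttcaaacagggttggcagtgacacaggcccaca

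Both strands were searched for the T-box core GGTGTGA, the STAT palindrome TTCNNNGAA and the TATA letters TATAA, the last added after the sequences were seen. No 2 of these motifs overlapped. Eomes had 1 TATAA, whose first base lies 28 bases before the start site, and Cd44 and Cd5 had 0. The T-box core and the STAT palindrome had 0 matches in these 3 windows. Of 32851 RefSeq windows of this length, 3.33% held the T-box core, 7.02% the STAT palindrome and 22.8% TATAA. G and C made up 56.4% of the Cd44 window, 46.4% of the Eomes window and 56.8% of the Cd5 window, against a median of 52.4% over all windows. In the other members, RefSeq lists 2 windows each for Ly6c1 and Ly6c2, on chromosome 15. Of the Ly6c1 windows, 1 had a TATAA 143 bases before its start site and the other had a T-box core 112 bases before its own. The Ly6c2 windows had 0 matches to the 3 motifs. Il2rb and Ly6a are named only.

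In the RNA, Cd44 and Eomes rose in sanroque cells, by 2.63-fold and 2.44-fold. Il2rb was high on 2 of the 3 sanroque arrays and at the wild-type level on the third, and it did not pass the test. Cd5 did not pass either, with values close together in all 6 arrays. So 2 of the 4 measured members rose and 0 fell, where 3.26% of all genes rose and 2.51% fell. A gene passed at a Benjamini-Hochberg adjusted p below 0.05, taken over all 19938 genes, in limma, a linear model that shares information on the spread between genes. In a bulk sample, a larger share of cells expressing a gene and more RNA per cell cannot be told apart.

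Cd44, the gene of the sort marker, read 5.98, 6.43 and 6.34 on wild type arrays 1, 2 and 3, and 7.34, 7.70 and 7.90 on sanroque arrays 1, 2 and 3 (log2 intensity). All sanroque values lay above all wild-type values, with a gap of 0.92 between the nearest arrays. On the linear scale this was an intensity of 63.3 to 85.9 in wild type and 162 to 239 in sanroque. The log2 fold was 1.40 ± 0.17 (sanroque minus wild type, ± standard error; 95% interval 1.00 to 1.79; adjusted p = 0.00669, limma with Benjamini-Hochberg). Cd44 passed under every alternative setting run and with each single array left out, with a log2 fold of 1.23 to 1.63.

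Eomes, the T-box factor, read 8.12, 8.40 and 8.07 on the wild-type arrays and 9.38, 9.85 and 9.22 on the sanroque arrays (log2 intensity, replicates 1 to 3). Again the groups did not overlap, and sanroque replicate 2 was the highest array. The wild-type mean was 8.20 ± 0.18 and the sanroque mean 9.48 ± 0.33 (SD over 3 arrays each). The log2 fold was 1.29 ± 0.17 (95% interval 0.88 to 1.69; adjusted p = 0.0107, limma with Benjamini-Hochberg). Without wild type replicate 1 the log2 fold was 1.25 and Eomes did not pass (adjusted p = 0.0665, limma with Benjamini-Hochberg).

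Il2rb, the shared receptor chain for interleukins 2 and 15, read 10.22, 10.18 and 10.06 on the wild-type arrays and 10.13, 11.10 and 11.13 on the sanroque arrays (log2 intensity, replicates 1 to 3). Sanroque replicate 1 lay inside the wild-type range, and the other sanroque arrays were at about the same level as each other. The spread within sanroque was accordingly wide, with a mean of 10.79 ± 0.57 against a wild-type mean of 10.15 ± 0.08 (SD over 3 arrays each). The log2 fold was 0.63 ± 0.25 and did not pass (adjusted p = 0.228, limma with Benjamini-Hochberg), with an unadjusted 95% interval of 0.04 to 1.23. Without sanroque replicate 1 the log2 fold was 0.96 and passed (adjusted p = 0.00626, limma with Benjamini-Hochberg). With any other array left out it was 0.46 to 0.67 and did not pass.

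Cd5, the gene of the inhibitory coreceptor, read 10.35, 10.44 and 10.39 on the wild-type arrays and 10.43, 10.33 and 10.08 on the sanroque arrays (log2 intensity, replicates 1 to 3). The groups overlapped, and sanroque replicate 3 was the lowest array. The log2 fold was -0.11 ± 0.10 (adjusted p = 0.702, limma with Benjamini-Hochberg). Its unadjusted 95% interval ran from -0.35 to 0.13, so it leaves out a change of the size seen in Cd44 or Eomes.

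**Figure D1:**
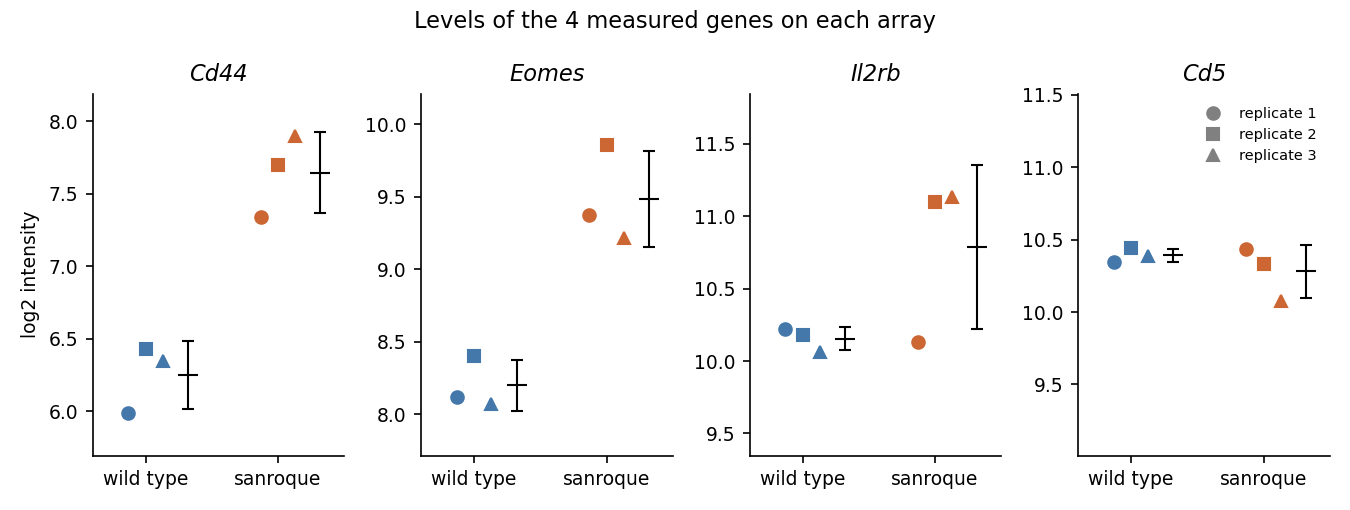
Log2 intensity (y axis, each panel spanning the same range of log2 units) of Cd44, Eomes, Il2rb and Cd5 on the 3 wild-type and 3 sanroque arrays; points are arrays, with marker shape for the replicate number, and bars are mean ± SD. The genotypes are apart for Cd44 and Eomes, sanroque replicate 1 reads 10.13 for Il2rb inside the wild-type range, and the Cd5 values overlap.

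The 4 genes did not follow a common order among the sanroque arrays. Replicate 3 was highest for Cd44 and Il2rb and lowest for Eomes and Cd5, replicate 2 was highest for Eomes, and replicate 1 was lowest for Cd44 and Il2rb and highest for Cd5. In wild type, replicate 2 was the highest array for Cd44, Eomes and Cd5.

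**Figure D2:**
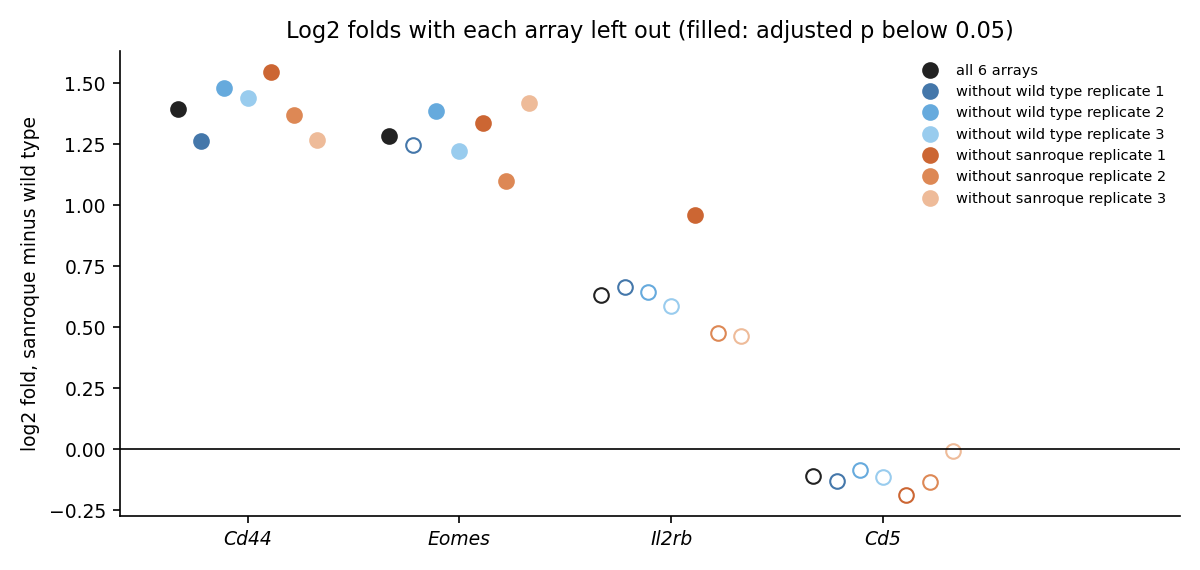
Log2 fold (y axis, sanroque minus wild type) of the 4 measured genes with all 6 arrays and with each array left out; filled points have an adjusted p below 0.05 over all genes. Cd44 is filled throughout, Eomes is open without wild type replicate 1 at 1.25, and Il2rb is filled only without sanroque replicate 1, at 0.96.

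Genes of interleukin 2 and 15 signalling, the pathway Il2rb belongs to, had log2 folds of 0.20 to 0.65. Of 11 measured, 2 rose, 0 fell and 9 did not pass, where 3.26% of all genes rose and 2.51% fell. Il2rg and Jak3 had no probe set of their own. The median log2 fold was 0.34 against -0.03 over all genes. Il2ra, the high-affinity interleukin 2 receptor chain, read 4.34, 4.33 and 4.47 on the wild-type arrays and 4.83, 4.94 and 5.32 on the sanroque arrays, a log2 fold of 0.65 ± 0.13 (adjusted p = 0.0340, limma with Benjamini-Hochberg). Bcl2, a survival gene downstream of these receptors, rose by 0.38 ± 0.07 on the log2 scale. Of the others, 7 also had all sanroque arrays above all wild-type arrays, which makes 9 of 11 where this held for 9.46% of all genes. Among these 7, Il15ra, the chain that presents interleukin 15, had a log2 fold of 0.54, and Cish, a feedback gene of the pathway, of 0.53, with adjusted p = 0.0516 and 0.0532 (limma with Benjamini-Hochberg). They were picked out after their values were seen. Il2ra did not pass when any wild-type array or sanroque replicate 2 was left out, and Bcl2 kept its call in none of the leave-one-out fits except that omitting sanroque replicate 3.

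Of 13 measured transcription factors that work beside Eomes in CD8+ T cells, 4 rose, 0 fell and 9 did not pass, with a median log2 fold of 0.32. For the 19938 genes together, higher calls made up 3.26%, lower calls 2.51%, and the median log2 fold was -0.03. Tbx21, the T-box paralog known as T-bet, read 6.12, 6.60 and 6.32 on the wild-type arrays and 8.84, 9.30 and 8.30 on the sanroque arrays, a log2 fold of 2.46 ± 0.24 (adjusted p = 0.00388, limma with Benjamini-Hochberg). Its sanroque arrays ranked as they did for Eomes, with replicate 2 highest and replicate 3 lowest. Zeb2, which acts with T-bet in terminal effector cells, rose by 2.18 ± 0.19 on the log2 scale, Prdm1, the gene of Blimp-1, by 1.30 ± 0.27, and Irf4, induced by receptor signals, by 1.09 ± 0.13. Prdm1 did not pass when any wild-type array or sanroque replicate 1 was left out. Zeb2 is also expressed by monocytes, and Prdm1 and Irf4 by plasma cells. All 10 monocyte and macrophage markers and 3 of 6 plasma cell markers rose with the genotype on these arrays. The part of these cells in these values was not tested. The 9 that did not pass had log2 folds of 0.60 for Bcl6, 0.49 for Id2, 0.32 for Batf, 0.32 for Runx3, 0.08 for Bach2, -0.03 for Foxo1, -0.10 for Klf2, -0.11 for Lef1 and -0.15 for Id3.

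Other genes known from memory-phenotype CD8+ T cells included larger log2 folds than those of the members. Of 17 measured, 6 rose, 1 fell and 10 did not pass, where 3.26% of all genes rose and 2.51% fell. The median log2 fold was 0.54. The chemokine gene Ccl5 had a log2 fold of 4.55 ± 0.27, the NKG2A gene Klrc1 of 3.99 ± 0.45, the interleukin 18 receptor gene Il18rap of 3.32 ± 0.36 and Fasl, the death ligand gene, of 2.43 ± 0.39. Of these, Fasl did not pass when any wild-type array was left out. In each of these 4, sanroque replicate 2 was the highest array, as it was for Eomes. The receptor partner gene of Il18rap, Il18r1, did not pass, with a log2 fold of -0.24. Klrd1, whose product pairs with that of Klrc1, fell by 0.48. Klrd1 did not pass without wild type replicate 1, wild type replicate 2 or sanroque replicate 2.

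Most genes of the Ly6 family did not pass, and those that rose lie near Ly6a and Ly6c on chromosome 15. Of 27 measured genes of the family, 3 rose, 0 fell and 24 did not pass, where 3.26% of all genes rose and 2.51% fell. The median log2 fold was 0.01. Ly6a2, which lies next to Ly6c2, read 4.46, 4.92 and 4.74 on the wild-type arrays and 8.22, 8.29 and 7.71 on the sanroque arrays, a log2 fold of 3.37 ± 0.18 (adjusted p = 0.00104, limma with Benjamini-Hochberg). Ly6g, whose product marks neutrophils, rose by 1.89 ± 0.21 on the log2 scale, and Ly6i rose by 1.11 ± 0.16. Ly6i did not pass without wild type replicate 1. Ly6e, widely expressed in lymphocytes, had a log2 fold of 0.05. These genes are close relatives, and how far a probe set of one reads the RNA of another was not tested, so the values of Ly6a2, Ly6g and Ly6i as single genes are uncertain.

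Most genes that bind, link or cut CD44 did not pass. Of 16 measured, 2 rose, 0 fell and 14 did not pass, where 3.26% of all genes rose and 2.51% fell. The median log2 fold was 0.06. The 2 were Mmp9, a secreted protease that docks on CD44, with a log2 fold of 1.69 ± 0.12, and Hmmr, another hyaluronan receptor that is also raised in dividing cells, with 0.37 ± 0.06. Mmp9 is a neutrophil product as well, and the neutrophil markers moved the same way on these arrays. Hmmr did not pass without wild type replicates 1 or 2 or sanroque replicates 1 or 2. The genes linking CD44 to the cell skeleton did not pass: Ezr, Msn and Rdx had log2 folds of -0.33, 0.50 and 0.21.

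Most regulators of T cell receptor signals that act around CD5 did not pass either. Of 20 measured, 1 rose, 1 fell and 18 did not pass, where 3.26% of all genes rose and 2.51% fell. The median log2 fold was 0.02. Nr4a1, an immediate response gene of the receptor, rose by 0.47 ± 0.09 on the log2 scale, and Cd69, an early activation marker, fell by 0.53. The other immediate response genes of the list, Egr1, Egr2, Egr3 and Nr4a3, had log2 folds of -0.33, -0.23, -0.21 and -0.19 and did not pass. All sanroque arrays lay below all wild-type arrays in 6 of the 20, Egr1, Egr3, Nr4a3 and Cd69 among them, where this held for 13.2% of all genes. They lay above in 1, Nr4a1. Each was lost from the calls when single arrays were left out, Cd69 for any array and Nr4a1 for any array other than sanroque replicate 2. Cd6, the paralog of Cd5, had a log2 fold of -0.05, and Ets1, a transcription factor of T cells, of 0.15, and neither passed.

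**Figure D3:**
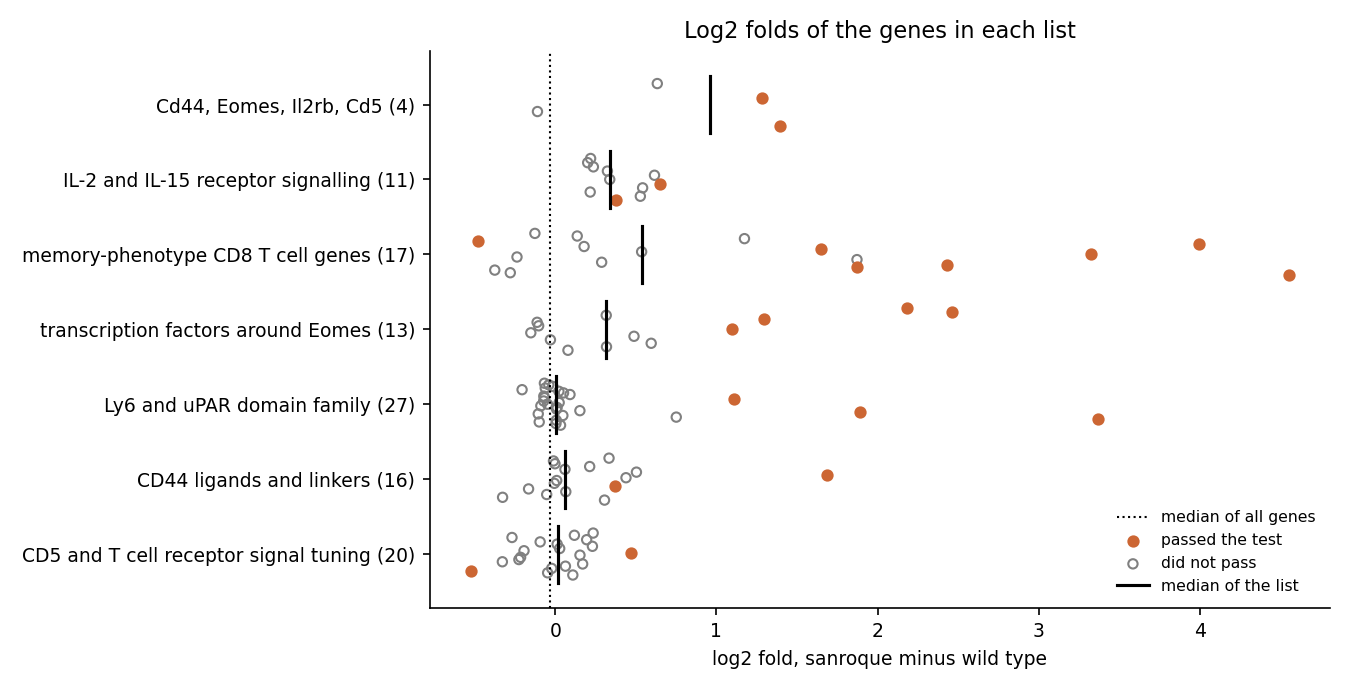
Log2 folds (x axis, sanroque minus wild type) of the measured genes in each list, 1 point per gene, with the number measured in brackets; filled points passed the test, open points did not, black ticks are list medians and the dotted line is the median of all genes. The memory-phenotype genes reach 4.55 while the Ly6, CD44 and CD5 lists have medians of 0.01, 0.06 and 0.02.

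The genes whose pattern was most like that of Cd44 over the 6 arrays were Irf8, Kif11, Xdh, Slc9a7 and Scpep1. Likeness was the root mean square difference of log2 levels after each gene was centred on its own mean, and it was 0.10, 0.12, 0.15, 0.15 and 0.16 for these 5. Irf8, a transcription factor of B cells, myeloid cells and activated CD8+ T cells, read 6.64, 7.27 and 7.04 on the wild-type arrays and 8.26, 8.60 and 8.66 on the sanroque arrays. Kif11, a motor protein of the mitotic spindle, read 4.22, 4.46 and 4.33 on the wild-type arrays and 5.32, 5.87 and 6.19 on the sanroque arrays. Arsb was most like Eomes, at 0.09, Slc25a53 most like Il2rb, at 0.11, and Arl2bp most like Cd5, at 0.03. Slc25a53, a carrier of the mitochondrial family, read 6.69 in sanroque replicate 1 and 7.37 and 7.43 in the other sanroque arrays, against 6.56 to 6.67 in wild type.

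The labelled cell type was checked with 7 genes of CD8+ T cells. Cd8a and Cd8b1, which encode the CD8 chains, read 12.99 to 13.05 and 12.82 to 13.05 over the 6 arrays, with log2 folds of -0.02 and -0.08. Cd3d and Cd247, chains of the T cell receptor complex, fell by 0.52 and 0.33, and 5 did not pass. Cd3d did not pass without wild type replicates 1 or 2 or sanroque replicates 1 or 2, and Cd247 did not pass when any array was left out. Markers of other cells moved with the genotype, as Cd44 and Eomes did, where 3.26% of all genes rose and 2.51% fell. All 10 monocyte and macrophage genes rose, with a summed intensity of 685 to 1312 in wild type and 4793 to 4949 in sanroque. Of 10 neutrophil genes 8 rose, with summed intensities of 522 to 876 and 5111 to 10030, and of 12 B cell genes 8 rose, with 2077 to 4996 and 7631 to 9463. With single arrays left out the monocyte count was 7 to 10 and the neutrophil count 7 to 9. Of the B cell genes, 0 passed once wild type replicate 1 was dropped, 11 once replicate 2 of that genotype was dropped, and 1 when any of the other arrays was dropped. Cd44 is also expressed by each of these cell types. In wild type, replicate 2 had the highest sums of all 3 lists, and it was also the highest wild-type array for Cd44 and Eomes. In sanroque, the neutrophil sum was highest in replicate 1, where Cd44 and Il2rb were lowest. In sanroque replicates 1, 2 and 3 the monocyte sums were 4849, 4793 and 4949 and the B cell sums 9285, 7631 and 9463. Both were highest in replicate 3, where Cd44 and Il2rb were highest and Eomes was lowest. In replicate 1, where Cd44 and Il2rb were lowest, both sums were close to those of replicate 3. The part of these cells in the Cd44 and Eomes results was not tested.

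Eomes and Il2rb are also genes of natural killer cells. Of 6 natural killer cell genes 2 rose, Fcgr3 by 0.89 and Klre1 by 0.83 on the log2 scale, where 3.26% of all genes rose. Klre1 was dim, at 4.11 to 4.31 in wild type and 4.86 to 5.22 in sanroque, where the array medians were 5.74 to 5.83. The list had a summed intensity of 160 to 175 in wild type and 223 to 277 in sanroque. In sanroque, this sum was highest in replicate 2 and lowest in replicate 3, as Eomes was, while Il2rb was highest in replicate 3. The defining marker Ncr1 read 4.13 to 4.84 in wild type and 4.15 to 4.61 in sanroque, where the lowest value on any array was 3.26. Klrb1c, another defining marker, read 4.52 to 4.88 in wild type and 4.90 to 6.14 in sanroque. It did not pass (log2 fold 0.94, adjusted p = 0.120, limma with Benjamini-Hochberg). Of 6 CD4 T cell genes 3 rose, Ctla4 (log2 fold 2.13), Ikzf2 (1.07) and Zbtb7b (0.80), with sums of 393 to 439 in wild type and 723 to 1082 in sanroque. Cd4 itself did not pass (0.95, adjusted p = 0.0783, limma with Benjamini-Hochberg), and neither did Foxp3 (0.38) or Cd40lg (0.27). All sanroque arrays lay above all wild-type arrays in all 6, where this held for 9.46% of all genes. Of 6 plasma cell genes 3 rose, Jchain (log2 fold 3.28), Mzb1 (1.81) and Xbp1 (0.75), with sums of 540 to 848 and 1636 to 2227. Sdc1 (0.19), Derl3 (0.11) and Tnfrsf17 (-0.05) did not pass. Of 7 dendritic cell genes 1 rose, Itgax (log2 fold 1.96), with sums of 282 to 359 and 375 to 570. Flt3 (0.23), Xcr1 (0.22), Clec9a (0.10), Batf3 (0.02), Siglech (-0.03) and Zbtb46 (-0.12) did not pass. In the 3 measured genes of innate-like T cells and the 3 of red cells and platelets 0 passed, with sums of 149 to 167 in wild type and 141 to 168 in sanroque for the first and 69.9 to 74.5 and 67.9 to 88.0 for the second. With single arrays left out these counts were 2 to 3 for natural killer cells, 0 to 3 for CD4 T cells (0 when wild type replicate 1 or 3 was dropped, 1 when sanroque replicate 1 or wild type replicate 2 was) and 1 to 2 for plasma cells (1 without wild type replicates 1 or 3 or sanroque replicate 2). They were 0 to 1 for dendritic cells (0 without wild type replicates 1 or 2) and, for red cells and platelets, 1 without sanroque replicate 3 and 0 in the other fits. The part of these cells in the member results was not tested. No marker was at 0, since the lowest deposited intensity on any array was 9.56.

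**Figure D4:**
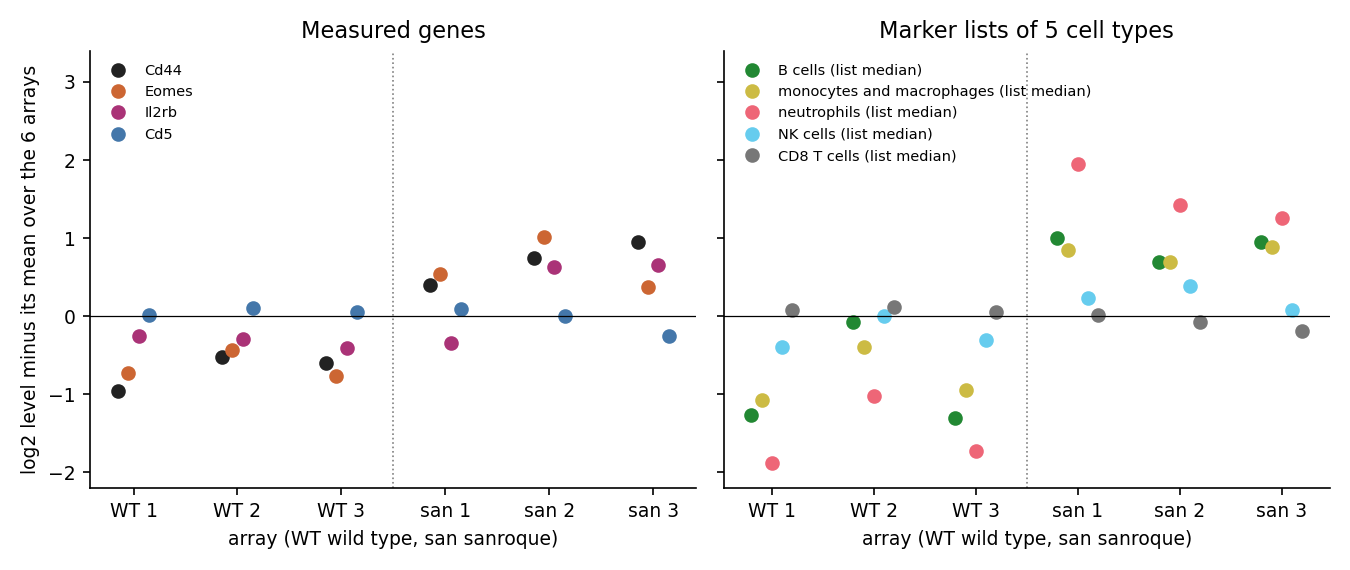
Log2 level minus its mean over the 6 arrays (y axis) for the 4 measured genes (left) and for the median of 5 marker lists (right) on each wild-type (WT) and sanroque (san) array. The B cell, monocyte, neutrophil and natural killer cell medians are higher on every sanroque array, as Cd44 and Eomes are. The CD8 T cell median lies between 12.23 and 12.54 before centring on all 6.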

How the data were processed

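The values the authors deposited are linear intensities, 1 for each probe set on each array; per the labels' protocols the arrays took biotin-labelled cRNA. The submitters' processing notes name Partek without a role. Background correction and normalization: not given in the sources used here. Medians per array were 53.6 to 56.9, and values were analysed as log2 without renormalizing. Of 35399 probe sets, 21789 had 1 symbol, updated through the GRCm38.p6 gene table, where 19856 of 19938 genes matched. A gene with several probe sets was represented by its brightest over the 6 arrays. The files give no detection calls, and the number of arrays limits the precision.

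Genes were compared with limma 3.58.1 in R 4.3.3 (lmFit and eBayes, two-sided, no filter, no block), tested on simulated data. P-values set the difference between genotypes against the spread between these samples, which limma moderates with that of other genes. Lists are described by counts and medians. The text names the members, up to 4 called genes of each list or the 2 with the smallest p, the highest marker and 2 called markers per cell type, and the genes most like each member without provisional symbols; others were chosen after their values were seen. The members, lists and tests were chosen with earlier results of these data known. Alternatives covered probe set choice, dim-gene filters, normalization, offset, variance model, array weights, replicate block and left-out arrays. Figures used matplotlib 3.10.9 in Python 3.11.15.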

Additional observations from a re-analysis of the deposited data

How the results depend on the processing

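Cd44 kept its direction and its call in all 19 alternatives. Eomes lost its call in 2, with adjusted p = 0.0665 when wild type replicate 1 and 0.0504 when sanroque replicate 1 together with wild type replicate 2 was left out. Il2rb gained a call in 2, at log2 folds of 0.96 without sanroque replicate 1 and 0.97 without both arrays. Cd5 kept its sign and did not pass in any. Members called higher numbered 1 to 3 with single arrays left out and 2 in each other alternative, with 0 lower throughout. Over all genes, 650 higher and 501 lower calls became 196 to 587 and 22 to 728 with single arrays left out (higher 196, 398, 427 and 337 without wild type replicates 1, 2 and 3 and sanroque replicate 2, and lower 22, 91, 148 and 55 without wild type replicates 1 and 2 and sanroque replicates 1 and 2). They became 326 and 27 without both arrays, 1998 and 2735 with array weights, and 425 and 141 when each of 35399 probe sets was tested. With the replicate number as a block they were 271 and 30, and the block changed no call of a member. The correlations of same-numbered arrays' deviations were -0.05, -0.16 and -0.36. With 3 arrays per genotype these values cannot decide whether the numbers pair the samples. The labels do not say what a shared number means. With single arrays left out, higher calls were 0 to 2 in the interleukin 2 and 15 list, 5 to 7 in the memory list, 3 to 5 in the transcription factors, 2 to 3 in the Ly6 family, 1 to 3 in the CD44 list and 0 to 1 in the CD5 list. Lower calls were 0 to 2 in the memory list, 2 with quantile normalization, 0 to 1 in the CD44 list, 0 in the CD5 list, and 0 in the rest. The cause of these moves was not tested.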

Other observations

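The probe sets that carry both the Ly6c1 and the Ly6c2 symbol stand for no single gene and entered no comparison of genes. The first read 12.15, 12.16 and 12.05 on wild type arrays 1, 2 and 3, and 12.59, 12.71 and 12.78 on sanroque arrays 1, 2 and 3 (log2 intensity). The second read 12.12, 12.09 and 12.21 on the wild-type arrays and 12.60, 12.76 and 12.82 on the sanroque arrays. On both, all sanroque arrays lay above all wild-type arrays, with replicate 3 the highest in sanroque, as for Cd44. With each of 35399 probe sets tested one by one, where 1.60% passed, the log2 folds were 0.57 ± 0.07 and 0.59 ± 0.08, and both passed (adjusted p = 0.0307 and 0.0371, limma with Benjamini-Hochberg). Ly6C is also abundant on monocytes, whose markers all rose on these arrays.

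In the RefSeq gene table the protein-coding genes Ly6e, Ly6i, Ly6a, Ly6c1, Ly6c2, Ly6a2, Ly6g, Ly6g2 and Ly6f follow each other on chromosome 15. The genes in this run that rose, Ly6i, Ly6a2 and Ly6g, surround the 3 without a value of their own. At its ends, Ly6e, Ly6g2 and Ly6f had log2 folds of 0.05, 0.15 and -0.11 and did not pass. The order was looked at after the values were seen.

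The pore-forming gene Prf1 was among the 5 genes most like Il2rb, which was noticed after its values were seen. It read 9.43 in sanroque replicate 1 and 10.12 and 10.20 in the other sanroque arrays, against 9.23 to 9.68 in wild type, and did not pass (log2 fold 0.52, adjusted p = 0.255, limma with Benjamini-Hochberg).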
